A study of Homo sapiens with 30 samples.

Results

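SYT13, DDC, CNTN1, MAOB, ETV1, HTR3A, TRIM9 and STXBP5L are 8 of the 20114 genes in a table of RNA levels in SUM190 cells. They were grouped under the label of neural genes. SUM190 is an established line from an inflammatory breast cancer, which is an epithelial tumour. The genes were taken by symbol. They had been selected on measured values: differences between the doxorubicin-resistant or paclitaxel-resistant derivative and the parental line in DMSO, and for HTR3A and TRIM9, for which the source is not recorded, possibly also the change with ruxolitinib. Those values are described without a test. All 8 genes were among the 12743 that passed a filter of at least 1 CPM (reads of a gene scaled to a common library total) in at least 2 libraries. The rule has no threshold, so no gene lies just inside or just outside it.

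Messenger RNA was sequenced from 30 libraries in 15 groups of 2, of which 7 groups were parental cells, 3 doxorubicin-resistant and 5 paclitaxel-resistant. Every group started from SUM190 cells seeded in wells, received its treatment or the vehicle DMSO 24 h later, and was kept in it for 72 h. Parental cells were given DMSO, 2.5 nM or 10 nM paclitaxel, 65 nM or 1 µM doxorubicin, 15 µM ruxolitinib, which blocks the Janus kinases JAK1 and JAK2, or 2.5 nM paclitaxel plus ruxolitinib. Doxorubicin-resistant cells received DMSO, 350 nM or 1 µM doxorubicin. Paclitaxel-resistant cells were given DMSO, 6.5 nM or 10 nM paclitaxel, 15 µM ruxolitinib, or 6.5 nM paclitaxel plus ruxolitinib. By the labels the ruxolitinib dose was 15 µM alone and 15 nM in both combinations. Whether the second unit is a slip could not be settled, so single-agent and combination values are set side by side and not compared as doses. Whether a resistant line is 1 clone, how it was selected, and whether the 2 libraries of a group are separate cultures are points on which the sources used here are silent. The p-values thus reflect only how far these libraries lay apart, which may be technical. The libraries held 18443749 to 32669995 reads in genes. Where no read was seen, up to 3 reads remain possible by counting error alone, equal to 0.0947 to 0.163 CPM. By chi-square per degree of freedom on reads, the 2 parental DMSO libraries differed most from each other (37.1, against 2.19 to 27.2 elsewhere). By Pearson's r of log2 values, the 2 parental 1 µM doxorubicin libraries differed most (0.9927, against 0.9940 in parental DMSO). Which group varied most thus depends on the measure. Calls against parental DMSO that were lost without 1 of the parental DMSO libraries are given beside their results.

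The 8 genes fall into 4 roles. DDC, aromatic L-amino acid decarboxylase, makes dopamine and serotonin from their amino acid precursors, MAOB is a mitochondrial monoamine oxidase that breaks amines down, and HTR3A is the A subunit of the serotonin receptor that is itself an ion channel. SYT13 is an atypical synaptotagmin, a family of membrane proteins that act in vesicle traffic and fusion. STXBP5L (tomosyn-2) binds syntaxin and restrains the assembly of SNARE complexes, the machinery that fuses vesicles with the plasma membrane. TRIM9 is a ubiquitin ligase that binds the netrin receptor DCC and the SNARE protein SNAP25. CNTN1, contactin 1, is a lipid-anchored adhesion molecule of axons, and ETV1 is a transcription factor of the PEA3 group of the ETS family, downstream of receptor tyrosine kinase and ERK signalling. None of these genes is limited to the nervous system: DDC, for example, is also made in kidney and gut, and ETV1 in several tumours.

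RefSeq promoter windows on GRCh38.p14 were matched by symbol for 6 of the 8 genes, all but SYT13 and HTR3A. The 250 bases before each annotated start site were searched on both strands for TTCNNNGAA (the palindrome bound by STAT factors, which act downstream of JAK kinases), CCGGAA (the core of ETS sites), TGACGT (the core of the cyclic AMP response element) and CACGTG (an E box). These 4 motifs do not overlap in the windows printed. The windows below are shown because ETV1 and STXBP5L held matches, and because DDC and TRIM9 are genes whose level differed with ruxolitinib. Letters run 5′ to 3′ on the gene's strand, and capitals mark a match.
ETV1, start site 1, chr7:13991426-13991675 (minus strand): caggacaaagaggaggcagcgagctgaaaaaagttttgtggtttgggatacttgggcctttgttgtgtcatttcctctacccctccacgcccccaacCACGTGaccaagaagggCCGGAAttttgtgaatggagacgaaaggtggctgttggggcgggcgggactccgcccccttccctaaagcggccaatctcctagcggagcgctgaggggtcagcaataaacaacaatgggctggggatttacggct
STXBP5L, start site 1, chr3:120907955-120908204 (plus strand): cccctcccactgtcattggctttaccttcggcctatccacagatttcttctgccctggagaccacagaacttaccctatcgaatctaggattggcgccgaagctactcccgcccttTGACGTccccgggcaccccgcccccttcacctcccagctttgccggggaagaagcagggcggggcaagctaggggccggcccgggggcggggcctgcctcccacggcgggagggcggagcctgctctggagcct
DDC, start site 1, chr7:50565406-50565655 (minus strand): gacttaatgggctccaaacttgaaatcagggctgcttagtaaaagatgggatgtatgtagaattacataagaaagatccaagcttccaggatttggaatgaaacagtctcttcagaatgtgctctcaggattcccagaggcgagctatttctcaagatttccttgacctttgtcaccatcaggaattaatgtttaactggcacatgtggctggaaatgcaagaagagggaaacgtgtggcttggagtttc
DDC, start site 2, chr7:50561072-50561321 (minus strand): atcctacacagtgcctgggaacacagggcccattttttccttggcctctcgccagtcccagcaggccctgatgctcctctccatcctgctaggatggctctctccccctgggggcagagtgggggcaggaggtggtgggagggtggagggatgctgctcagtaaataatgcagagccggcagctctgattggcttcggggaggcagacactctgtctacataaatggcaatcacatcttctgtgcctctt
TRIM9, start site 1, chr14:51095106-51095355 (minus strand): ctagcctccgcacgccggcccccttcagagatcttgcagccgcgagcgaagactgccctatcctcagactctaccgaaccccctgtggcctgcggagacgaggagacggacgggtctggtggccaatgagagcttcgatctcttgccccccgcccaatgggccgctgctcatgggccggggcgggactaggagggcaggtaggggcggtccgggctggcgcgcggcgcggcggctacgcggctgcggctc

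The ETV1 window held CCGGAA with its first letter 136 bases before the start site and CACGTG 153 bases before it. ETV1 has 6 annotated start sites, and CCGGAA was also found in the windows of start sites 3 and 4, which overlap and share the match. The STXBP5L window held TGACGT 134 bases before the start. None of the windows of DDC, CNTN1, MAOB and TRIM9 held any of the 4 motifs, and TTCNNNGAA was in no window of the 6 genes. Of 34943 windows of the same length over all genes, TTCNNNGAA was in 6.56%, CCGGAA in 14.5%, TGACGT in 7.09% and CACGTG in 6.32%. A match is a description of letters, and its absence says only that the letters are not in that window.

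The 8 genes did not form 1 pattern across the lines. In DMSO, SYT13, DDC and CNTN1 were higher in both resistant lines than in parental cells, and MAOB and ETV1 were higher in paclitaxel-resistant cells and lower in doxorubicin-resistant cells. STXBP5L went the other way, high in doxorubicin-resistant cells and low in paclitaxel-resistant cells. HTR3A was highest in parental cells, and TRIM9 differed least. In doxorubicin-resistant cells 4 of the 8 genes had both libraries above both parental libraries and 4 had both below. In paclitaxel-resistant cells 6 were above and 2 below. The share of all tested genes whose libraries did not overlap was not counted. By calls, a different measure, 12.3% of all tested genes were higher and 15.2% lower in doxorubicin-resistant cells. In paclitaxel-resistant cells 16.3% were called higher and 16.3% lower. Because these contrasts chose the genes, nothing is read from these counts. In bulk RNA, fewer cells with a transcript and less of it per cell cannot be told apart.

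**Figure D1:**
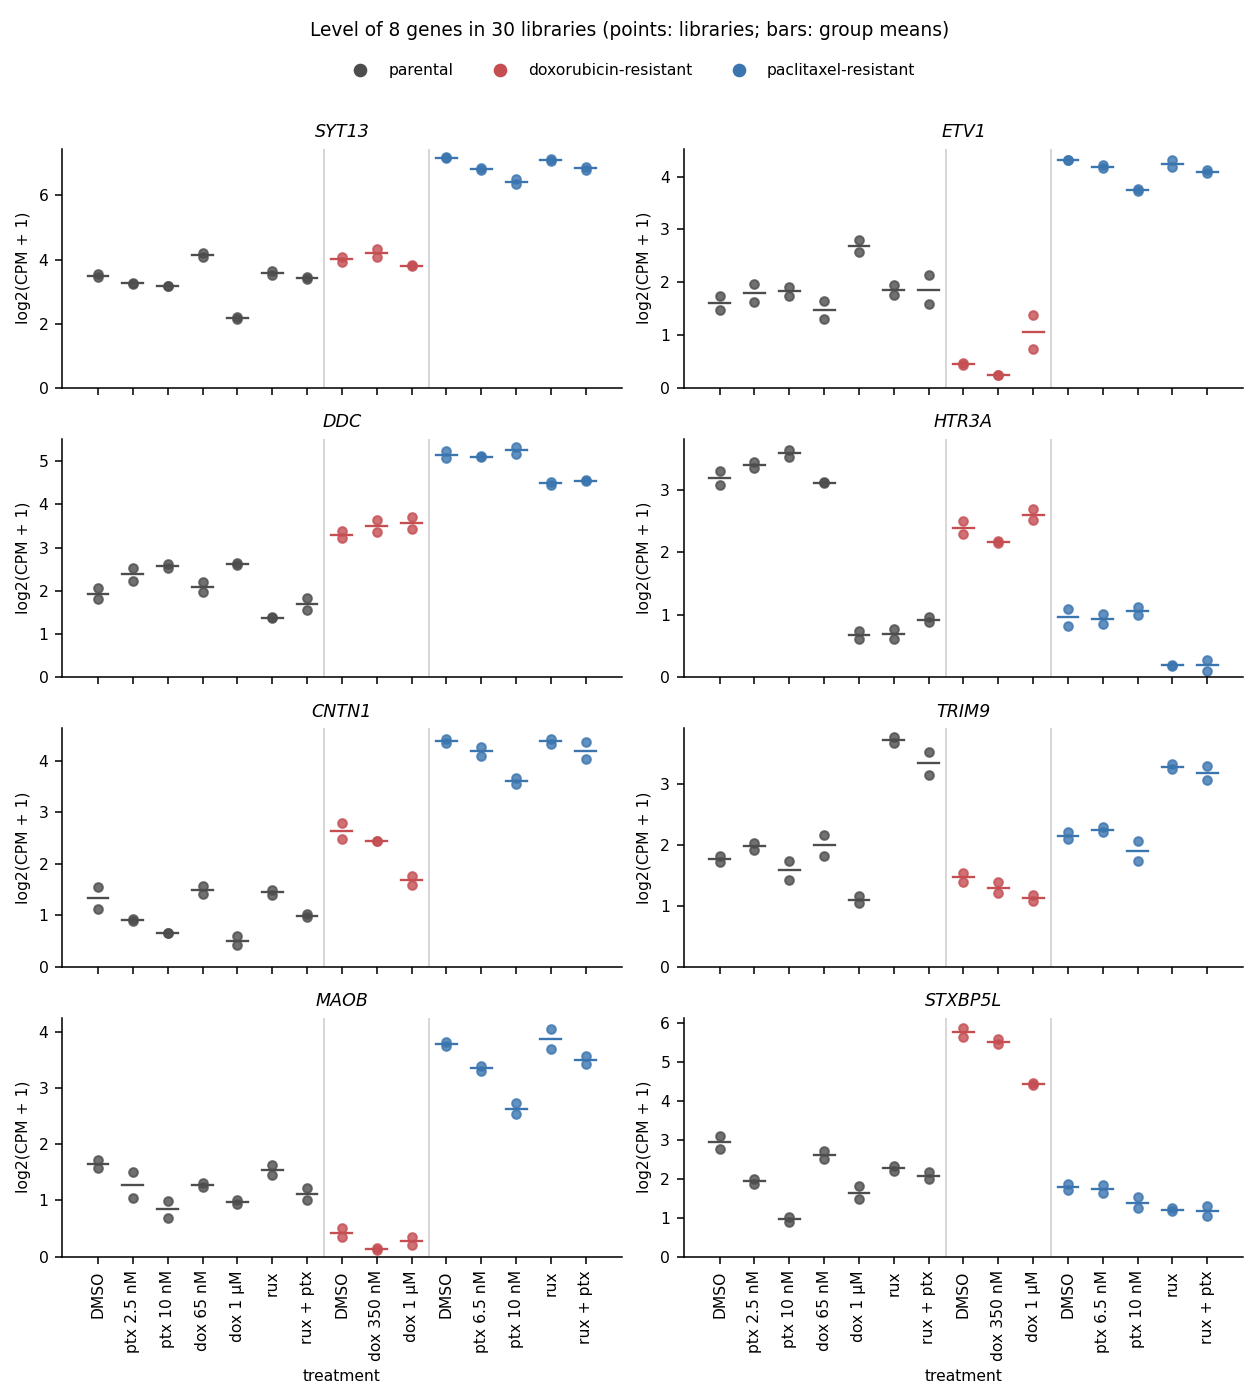
Level of the 8 genes in all 30 libraries: each panel is a gene, the y axis is log2(CPM + 1), the x axis lists the treatments of the parental (grey), doxorubicin-resistant (red) and paclitaxel-resistant (blue) lines, points are libraries and bars are group means (ptx, paclitaxel; dox, doxorubicin; rux, ruxolitinib). SYT13, DDC, CNTN1, MAOB and ETV1 sit highest in the blue groups, STXBP5L in the red groups, and HTR3A in part of the grey groups.

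DDC had 3.16 and 2.51 CPM in the 2 parental DMSO libraries, 9.37 and 8.35 CPM in doxorubicin-resistant cells and 36.8 and 32.4 CPM in paclitaxel-resistant cells. The 3 lines did not overlap, in DMSO or over all treatments: the 14 parental libraries ran from 1.57 to 5.25 CPM (median 3.37), the 6 doxorubicin-resistant ones from 8.35 to 12.1 CPM (median 9.59) and the 10 paclitaxel-resistant ones from 21.0 to 39.0 CPM (median 32.7). In DMSO this was a difference of 1.36 ± 0.13 for doxorubicin-resistant and 3.22 ± 0.13 for paclitaxel-resistant cells against parental cells. All such differences are of log2(CPM + 1), with a standard error. Adding 1 CPM understates the change of low genes, so sizes on this scale do not rank lines with unlike levels. The ratio of mean CPM, or mean CPM itself, is given as well for some low genes.

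In parental cells DDC rose with both paclitaxel doses and with 1 µM doxorubicin. It had 4.78 and 3.67 CPM at 2.5 nM paclitaxel, 5.12 and 4.80 CPM at 10 nM, and 5.25 and 5.07 CPM at 1 µM doxorubicin, all above both DMSO libraries. The differences from DMSO were 0.44 ± 0.13 (adjusted p = 0.0164), 0.64 ± 0.13 (adjusted p = 3.25e-04) and 0.69 ± 0.13 (adjusted p = 4.75e-05). Here and throughout, adjusted p-values are two-sided, from limma fitted to all 12743 genes, with Benjamini-Hochberg adjustment within a comparison, and a gene was called under 0.05. The DMSO libraries used as controls are also those that chose the genes, so tests against DMSO are not independent of that choice. The call at 2.5 nM was lost in a fit of the compared lines only (adjusted p = 0.073), without parental DMSO replicate 2 (adjusted p = 0.0965) or the first 2.5 nM library (0.29, adjusted p = 0.16). At 65 nM doxorubicin DDC had 2.93 and 3.59 CPM, which overlapped DMSO. In the resistant lines no paclitaxel or doxorubicin dose gave a call: DDC had 33.5 and 33.0 CPM at 6.5 nM and 39.0 and 34.9 CPM at 10 nM paclitaxel, and 11.3 and 9.29 CPM at 350 nM and 12.1 and 9.82 CPM at 1 µM doxorubicin.

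MAOB had 1.98 and 2.29 CPM in parental DMSO, 12.4 and 13.2 CPM in paclitaxel-resistant DMSO, and only 0.267 and 0.423 CPM (7 and 11 reads) in doxorubicin-resistant DMSO. The ranges of the 3 lines did not overlap over all treatments either. They were 0.619 to 2.29 CPM (median 1.35) in parental, 0.0885 to 0.423 CPM (median 0.212) in doxorubicin-resistant and 4.82 to 15.6 CPM (median 10.3) in paclitaxel-resistant libraries. Mean CPM in DMSO was 5.99-fold higher in paclitaxel-resistant and 6.19-fold lower in doxorubicin-resistant cells than in parental cells, and between the resistant lines the ratio was 37.1.

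Paclitaxel lowered MAOB at 10 nM in both lines that received it. Parental cells had 1.07 and 1.84 CPM at 2.5 nM and 0.619 and 0.980 CPM at 10 nM, and paclitaxel-resistant cells had 9.49 and 8.95 CPM at 6.5 nM and 5.63 and 4.82 CPM at 10 nM. All of these libraries lay below both DMSO libraries of their line. At 10 nM MAOB fell by 0.81 ± 0.15 (adjusted p = 1.01e-04) in parental and by 1.15 ± 0.15 (adjusted p = 1.17e-05) in paclitaxel-resistant cells. Mean CPM went from 2.14 to 0.799 in parental and from 12.8 to 5.23 in paclitaxel-resistant cells. As a ratio, the fall was thus not larger in the resistant line. The lower doses missed the threshold (parental -0.37, adjusted p = 0.0643; paclitaxel-resistant -0.43, adjusted p = 0.477). The parental 2.5 nM difference passed after the GC and length correction (adjusted p = 0.0406) and without the second 2.5 nM library (-0.60, adjusted p = 0.0425). MAOB also fell with 1 µM doxorubicin in parental cells, to 0.916 and 1.02 CPM (-0.67 ± 0.15, adjusted p = 2.59e-04). With 65 nM doxorubicin it was at 1.37 and 1.47 CPM (adjusted p = 0.106, and 0.0485 after the GC and length correction). In doxorubicin-resistant cells, treated libraries held 2 to 7 MAOB reads (0.112 and 0.0885 CPM at 350 nM, 0.158 and 0.271 CPM at 1 µM), at or near the limit that a count of 0 allows, so a further decrease was not detectable at this depth.

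The close relative MAOA, named here after its values were seen, went the other way with paclitaxel in parental cells. Parental cells had 0.890 and 1.26 CPM of MAOA in DMSO and 4.37 and 4.85 CPM in 10 nM paclitaxel, where MAOA rose by 1.44 ± 0.13 (adjusted p = 1.38e-08) as MAOB fell. In paclitaxel-resistant cells MAOA had 2.28 and 2.22 CPM in DMSO and 2.85 and 3.19 CPM in 10 nM paclitaxel (0.31 ± 0.13, adjusted p = 0.137). In DMSO MAOA, like MAOB, was higher in paclitaxel-resistant than in parental cells (0.65 ± 0.13, adjusted p = 5.60e-04).

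HTR3A had 7.41 and 8.90 CPM in parental DMSO, 4.65 and 3.88 CPM in doxorubicin-resistant DMSO and 1.14 and 0.769 CPM in paclitaxel-resistant DMSO, with no overlap between lines. Its differences from parental cells were -0.80 ± 0.13 and -2.23 ± 0.13, and mean CPM was 1.91-fold and 8.55-fold lower. Within parental cells HTR3A spanned 0.530 to 11.5 CPM (median 7.51), the widest ratio of highest to lowest group mean of the 8 genes in that line. It stood at 9.93 and 9.19 CPM in 2.5 nM and 11.5 and 10.5 CPM in 10 nM paclitaxel, 7.74 and 7.61 CPM in 65 nM doxorubicin, and 0.530 and 0.668 CPM in 1 µM doxorubicin. The 1 µM libraries lay far below all libraries of that line in DMSO or in paclitaxel alone. Against DMSO this was a fall of 2.51 ± 0.13 (adjusted p = 1.57e-14) or 13.6-fold in mean CPM. The higher level at 10 nM paclitaxel (0.39 ± 0.13, adjusted p = 0.0122) lost its call without parental DMSO replicate 1 (0.28, adjusted p = 0.156) or 10 nM replicate 1 (adjusted p = 0.0954), with a pseudocount of 0.25 CPM (adjusted p = 0.0745) and when GC content and length were corrected for (adjusted p = 0.0513).

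Doxorubicin-resistant cells showed no such fall at the same dose of 1 µM. They had 4.70 and 5.49 CPM there and 3.52 and 3.45 CPM at 350 nM, against the 4.65 and 3.88 CPM in DMSO, and neither dose gave a call (0.21 ± 0.13, adjusted p = 0.187, and -0.23 ± 0.13, adjusted p = 0.391). HTR3A was thus lower in resistant than in parental cells in DMSO and higher in 1 µM doxorubicin. In paclitaxel-resistant cells paclitaxel left it at 0.811 and 1.02 CPM (6.5 nM) and 0.994 and 1.18 CPM (10 nM), overlapping DMSO.

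SYT13 had 142 and 146 CPM in paclitaxel-resistant DMSO, against 10.7 and 9.93 CPM in parental and 15.8 and 14.3 CPM in doxorubicin-resistant DMSO. All 10 paclitaxel-resistant libraries (80.9 to 146 CPM, median 116) were above all others, while the 14 parental (3.42 to 17.4 CPM, median 9.75) and 6 doxorubicin-resistant libraries (12.9 to 19.1 CPM, median 15.0) overlapped. The differences from parental DMSO were 3.68 ± 0.09 and 0.50 ± 0.09.

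Doxorubicin moved SYT13 in opposite directions at the 2 doses given to parental cells. It rose to 16.02 and 17.4 CPM at 65 nM (0.65 ± 0.09, adjusted p = 5.45e-05) and fell to 3.42 and 3.65 CPM at 1 µM (-1.32 ± 0.09, adjusted p = 3.02e-12). Neither pair of libraries overlapped DMSO. Doxorubicin-resistant cells had 15.8 and 19.1 CPM at 350 nM (adjusted p = 0.259) and 12.9 and 13.2 CPM at 1 µM (-0.19 ± 0.09, adjusted p = 0.0937).

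Paclitaxel lowered SYT13 in both lines. Parental cells had 8.61 and 8.52 CPM at 2.5 nM and 8.005 and 7.94 CPM at 10 nM, and paclitaxel-resistant cells had 115 and 109 CPM at 6.5 nM and 89.6 and 80.9 CPM at 10 nM. All lay below DMSO, and at 10 nM SYT13 fell by 0.34 ± 0.09 (adjusted p = 0.00323) in parental and by 0.75 ± 0.09 (adjusted p = 3.59e-06) in paclitaxel-resistant cells. The call at 2.5 nM (-0.24 ± 0.09, adjusted p = 0.0444) was lost in 7 of the alternatives tried, among them the fit with the replicate number as a block (adjusted p = 0.052), median-of-ratios scaling (adjusted p = 0.0691) and leaving out parental DMSO replicate 1 (adjusted p = 0.328) or either 2.5 nM library (adjusted p = 0.095 and 0.199). At 6.5 nM SYT13 missed the threshold (-0.36 ± 0.09, adjusted p = 0.147) but passed in a fit of the compared lines only (adjusted p = 0.00491) and after the GC and length correction (adjusted p = 0.0452).

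STXBP5L was highest in the doxorubicin-resistant line, with 49.0 and 58.2 CPM in DMSO against 7.65 and 5.77 CPM in parental and 2.28 and 2.67 CPM in paclitaxel-resistant DMSO. The difference from parental cells was 2.83 ± 0.15 and -1.14 ± 0.15, and mean CPM was 7.99-fold higher and 2.71-fold lower. The 6 doxorubicin-resistant libraries ran from 20.3 to 58.2 CPM (median 45.2), above every other library. The 14 parental (0.867 to 7.65 CPM, median 3.26) and 10 paclitaxel-resistant libraries (1.05 to 2.67 CPM, median 1.68) overlapped.

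STXBP5L fell with chemotherapy in 2 of the lines. In parental cells it had 3.01 and 2.65 CPM at 2.5 nM paclitaxel, 0.867 and 1.03 CPM at 10 nM paclitaxel, and 1.78 and 2.51 CPM at 1 µM doxorubicin. These were falls of 1.00 ± 0.15 (adjusted p = 1.04e-04), 1.98 ± 0.15 (adjusted p = 4.32e-10) and 1.29 ± 0.15 (adjusted p = 3.11e-08). In doxorubicin-resistant cells 1 µM doxorubicin took it to 20.3 and 20.9 CPM, below both DMSO libraries (-1.33 ± 0.15, adjusted p = 2.24e-07), while 350 nM left it at 43.2 and 47.1 CPM (adjusted p = 0.468). In parental cells at 65 nM doxorubicin it had 5.51 and 4.70 CPM (adjusted p = 0.155), and the call appeared without parental DMSO replicate 2 (-0.51, adjusted p = 0.0409). Paclitaxel-resistant cells had 2.11 and 2.58 CPM at 6.5 nM and 1.36 and 1.90 CPM at 10 nM (-0.41 ± 0.15, adjusted p = 0.0673). The latter passed in a fit of the compared lines only (adjusted p = 0.0454) and without the second 10 nM library (-0.56, adjusted p = 0.0494).

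TRIM9 differed least between lines in DMSO, at 2.55 and 2.32 CPM in parental, 1.64 and 1.92 CPM in doxorubicin-resistant and 3.63 and 3.32 CPM in paclitaxel-resistant cells. The lines did not overlap in DMSO, but the differences from parental cells were only -0.31 ± 0.15 and 0.38 ± 0.15. With paclitaxel it had 3.09 and 2.81 CPM (2.5 nM) and 1.69 and 2.35 CPM (10 nM) in parental cells, and 3.65 and 3.91 CPM (6.5 nM) and 2.35 and 3.19 CPM (10 nM) in paclitaxel-resistant cells, with no call. At 1 µM doxorubicin TRIM9 fell in parental cells to 1.25 and 1.06 CPM (-0.67 ± 0.15, adjusted p = 2.65e-04). It had 3.52 and 2.55 CPM at 65 nM. Doxorubicin-resistant cells had 1.31 and 1.64 CPM at 350 nM and 1.26 and 1.12 CPM at 1 µM (-0.34 ± 0.15, adjusted p = 0.07), which passed with a pseudocount of 0.25 CPM (adjusted p = 0.0384) and after the GC and length correction (adjusted p = 0.0309).

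CNTN1 had 1.94 and 1.19 CPM in parental, 4.57 and 5.92 CPM in doxorubicin-resistant and 20.6 and 19.3 CPM in paclitaxel-resistant DMSO. The lines did not overlap over all treatments: parental libraries ran from 0.337 to 1.95 CPM (median 0.995), doxorubicin-resistant from 2.02 to 5.92 CPM (median 4.46) and paclitaxel-resistant from 10.6 to 20.6 CPM (median 18.7). Mean CPM in DMSO was 3.35-fold and 12.7-fold higher than in parental cells.

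CNTN1 was lower at the high dose of each chemotherapy than in DMSO in every line that received it. The DMSO controls are also the libraries that chose the gene, and the part of that choice was not tested. At 10 nM paclitaxel it had 0.578 and 0.588 CPM in parental (-0.68 ± 0.14, adjusted p = 3.21e-04) and 10.6 and 11.7 CPM in paclitaxel-resistant cells (-0.78 ± 0.14, adjusted p = 4.79e-04). At 1 µM doxorubicin it had 0.337 and 0.511 CPM in parental (-0.84 ± 0.14, adjusted p = 8.52e-06) and 2.02 and 2.40 CPM in doxorubicin-resistant cells (-0.96 ± 0.14, adjusted p = 9.01e-06). In each of these 4 comparisons both treated libraries lay below both DMSO libraries. With 1 µM doxorubicin mean CPM went from 1.57 to 0.424 in parental and from 5.25 to 2.21 in doxorubicin-resistant cells. With 10 nM paclitaxel it went from 1.57 to 0.583 in parental and from 19.9 to 11.2 in paclitaxel-resistant cells. As ratios, the falls were thus not larger in the resistant lines. At the lower doses CNTN1 had 0.866 and 0.919 CPM at 2.5 nM paclitaxel, 1.95 and 1.67 CPM at 65 nM doxorubicin, 4.46 and 4.47 CPM at 350 nM doxorubicin, and 18.3 and 16.1 CPM at 6.5 nM paclitaxel. Of these only 2.5 nM paclitaxel was called (-0.43 ± 0.14, adjusted p = 0.0278). That call was lost after the GC and length correction (-0.17, adjusted p = 0.377), by voom (adjusted p = 0.106), in a fit of the compared lines only (adjusted p = 0.0721), and without parental DMSO replicate 1 (-0.21, adjusted p = 0.474) or either 2.5 nM library (adjusted p = 0.0865 and 0.13).

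ETV1 had 1.78 and 2.35 CPM in parental DMSO, 0.343 and 0.385 CPM (9 and 10 reads) in doxorubicin-resistant DMSO and 19.0 and 18.8 CPM in paclitaxel-resistant DMSO. Mean CPM was 9.13-fold higher in paclitaxel-resistant and 5.68-fold lower in doxorubicin-resistant than in parental cells. Over all treatments paclitaxel-resistant libraries (12.2 to 19.0 CPM, median 17.0) lay above the rest. Parental (1.47 to 5.97 CPM, median 2.37) and doxorubicin-resistant libraries (0.177 to 1.61 CPM, median 0.364) overlapped through 1 library in 1 µM doxorubicin.

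At 1 µM doxorubicin ETV1 rose in both lines that received it. Parental cells had 4.91 and 5.97 CPM there (1.07 ± 0.18, adjusted p = 1.15e-05), against 2.11 and 1.47 CPM at 65 nM. Doxorubicin-resistant cells had 1.61 and 0.657 CPM at 1 µM (0.61 ± 0.18, adjusted p = 0.0102) and 0.187 and 0.177 CPM (5 and 4 reads) at 350 nM. The resistant call rested on the first 1 µM library, without which it was 0.28 (adjusted p = 0.299), and it also missed the threshold without DMSO replicate 1 (adjusted p = 0.0594). Paclitaxel left ETV1 at 2.06 and 2.91 CPM (2.5 nM) and 2.35 and 2.74 CPM (10 nM) in parental cells, with no call. In paclitaxel-resistant cells it had 17.6 and 16.9 CPM at 6.5 nM and 12.2 and 12.5 CPM at 10 nM, where it fell by 0.57 ± 0.18 (adjusted p = 0.0373). That call was lost with a pseudocount of 0.25 CPM (adjusted p = 0.109), with no filter on low values (adjusted p = 0.0643) and without any 1 of the 4 libraries compared (adjusted p = 0.108 to 0.158).

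Whether the lines still differed under drug was tested at the 3 treatments that 2 lines shared, in libraries other than the DMSO ones. Of 24 tests 22 were called, 16 higher and 6 lower in the resistant line. These include HTR3A and TRIM9 in ruxolitinib, for which the ruxolitinib libraries may have helped to choose the gene. These tests use other libraries of the same lines, so they measure whether a difference seen in DMSO was there under treatment.

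In 1 µM doxorubicin, 7 of the 8 genes were called between doxorubicin-resistant and parental cells, 5 higher and 2 lower, where 71.4% of all tested genes were called. STXBP5L (2.79 ± 0.15, adjusted p = 9.34e-14), SYT13 (1.63 ± 0.09, adjusted p = 1.35e-13), CNTN1 (1.17 ± 0.14, adjusted p = 7.75e-08) and DDC (0.95 ± 0.13, adjusted p = 7.49e-07) were higher, as in DMSO, and ETV1 (-1.63 ± 0.18, adjusted p = 3.04e-08) and MAOB (-0.70 ± 0.15, adjusted p = 1.91e-04) lower, as in DMSO. HTR3A was higher (1.93 ± 0.13, adjusted p = 3.13e-12) although lower in DMSO. TRIM9 was not called (0.02, 95% interval -0.28 to 0.33, adjusted p = 0.893). The median of the 8 differences was 1.06, against 0.06 over all genes. The genes were selected for differing between these lines in DMSO, so nothing is read from that contrast.

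In 10 nM paclitaxel, 7 of the 8 genes were called between paclitaxel-resistant and parental cells, 6 higher and 1 lower, where 49.7% of all genes were called. SYT13 (3.26 ± 0.09, adjusted p = 5.68e-18), CNTN1 (2.94 ± 0.14, adjusted p = 1.08e-13), DDC (2.67 ± 0.13, adjusted p = 1.48e-13), ETV1 (1.92 ± 0.18, adjusted p = 8.65e-09) and MAOB (1.80 ± 0.15, adjusted p = 8.38e-10) were higher and HTR3A was lower (-2.52 ± 0.13, adjusted p = 1.95e-13), each as in DMSO. STXBP5L was higher by 0.43 ± 0.15 (adjusted p = 0.0193) although lower in DMSO. That small difference lost its call by voom (0.74, adjusted p = 0.0685), without parental replicate 1 (adjusted p = 0.115) and without paclitaxel-resistant replicate 2 (0.28, adjusted p = 0.208). TRIM9 was not called (0.32, 95% interval 0.01 to 0.63, adjusted p = 0.0769) and passed without parental replicate 2 (0.48, adjusted p = 0.0305) or paclitaxel-resistant replicate 1 (0.48, adjusted p = 0.0327). The median of the 8 was 1.86, against 0.03 over all genes, from which nothing is read for the same reason.

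In ruxolitinib, all 8 genes were called between paclitaxel-resistant and parental cells, 5 higher and 3 lower, where 28.9% of all genes were called. SYT13 (3.52 ± 0.09, adjusted p = 5.19e-19), DDC (3.10 ± 0.13, adjusted p = 1.47e-14), CNTN1 (2.93 ± 0.14, adjusted p = 1.12e-13), ETV1 (2.39 ± 0.18, adjusted p = 3.99e-10) and MAOB (2.34 ± 0.15, adjusted p = 1.58e-11) were higher and STXBP5L lower (-1.06 ± 0.15, adjusted p = 5.45e-06). HTR3A (-0.51 ± 0.13, adjusted p = 0.00318) and TRIM9 (-0.44 ± 0.15, adjusted p = 0.0258) were also lower, but their calls support nothing, given how these 2 genes may have been chosen. The TRIM9 call was lost with a pseudocount of 0.25 CPM (adjusted p = 0.0565) and without any 1 of the 4 libraries (adjusted p = 0.0634 to 0.149). The HTR3A call was lost without parental ruxolitinib replicate 2 (adjusted p = 0.0525).

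**Figure D2:**
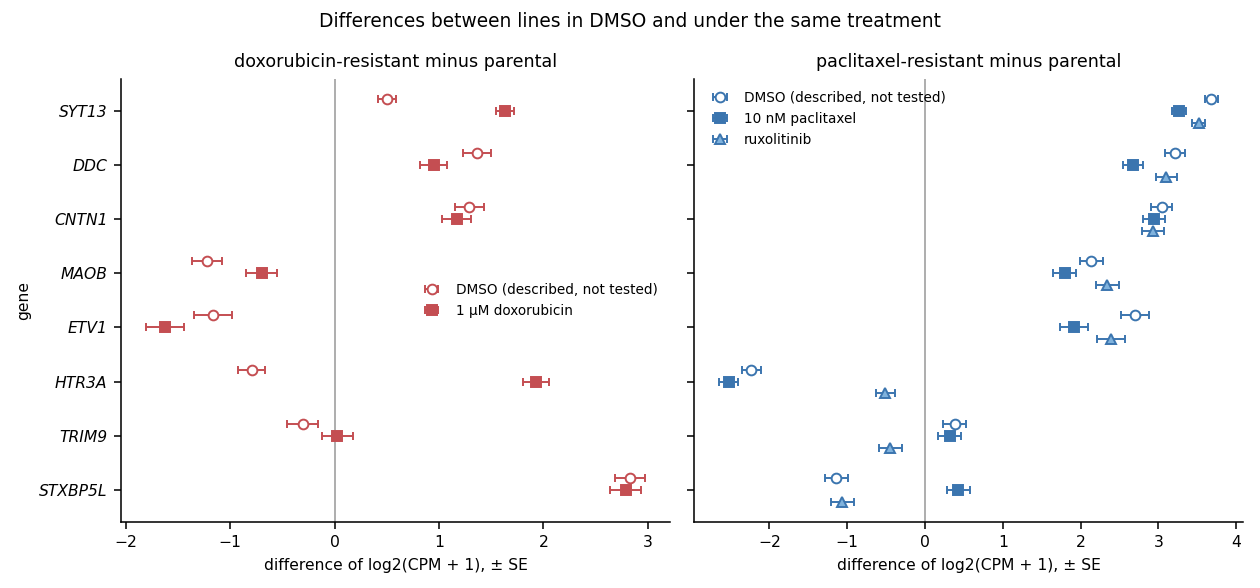
Difference of log2(CPM + 1) between each resistant line and parental cells, gene by gene, with standard errors: open circles are DMSO, which chose the genes, filled squares are 1 µM doxorubicin (left) or 10 nM paclitaxel (right), and triangles are ruxolitinib. Symbols of a gene lie on the same side of 0 except for HTR3A on the left, STXBP5L and TRIM9 on the right, and TRIM9 on the left, which is at 0.02 under drug.

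Within a line, 12 responses to drug gave 92 tests, of which 37 were called, 9 higher and 28 lower than the control. Over all tested genes the share called ran from 0.0942% to 75.8% between these responses, and its split by direction was not counted. Nothing is read from the pooled count. All 12 use libraries of DMSO or low-dose paclitaxel shared with other comparisons, and the DMSO libraries are those that chose the genes. The part of that choice in the falls was not tested.

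At 10 nM paclitaxel gave 6 calls in parental cells, 2 higher (DDC, HTR3A) and 4 lower (STXBP5L, MAOB, CNTN1, SYT13), where 48.2% of all genes were called, and 4 calls in paclitaxel-resistant cells, all lower (MAOB, CNTN1, SYT13, ETV1), where 13.6% were. The low doses differ between the lines, so they are only set side by side: 2.5 nM in parental cells gave 4 calls, 1 higher (DDC) and 3 lower (STXBP5L, CNTN1, SYT13), where 26.8% of genes were called. In paclitaxel-resistant cells 6.5 nM gave 0 calls by limma, where 0.0942% of genes were called, and 0 by voom. SYT13 and MAOB were under an unadjusted 0.05 there (2 of 8), both lower.

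Doxorubicin at 1 µM gave a call for all 8 genes in parental cells, 2 higher (ETV1, DDC) and 6 lower, where 75.8% of all genes were called, and for 3 in doxorubicin-resistant cells, 1 higher (ETV1) and 2 lower (STXBP5L, CNTN1), where 39.1% were. The parental count is thus near the background. At 65 nM in parental cells 1 gene was called (SYT13, higher), where 11.2% of genes were called, and at 350 nM in doxorubicin-resistant cells 0 by limma, where 3.81% were, and 0 by voom. SYT13 alone was under an unadjusted 0.05 at 350 nM (1 of 8), higher by 0.20.

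**Figure D3:**
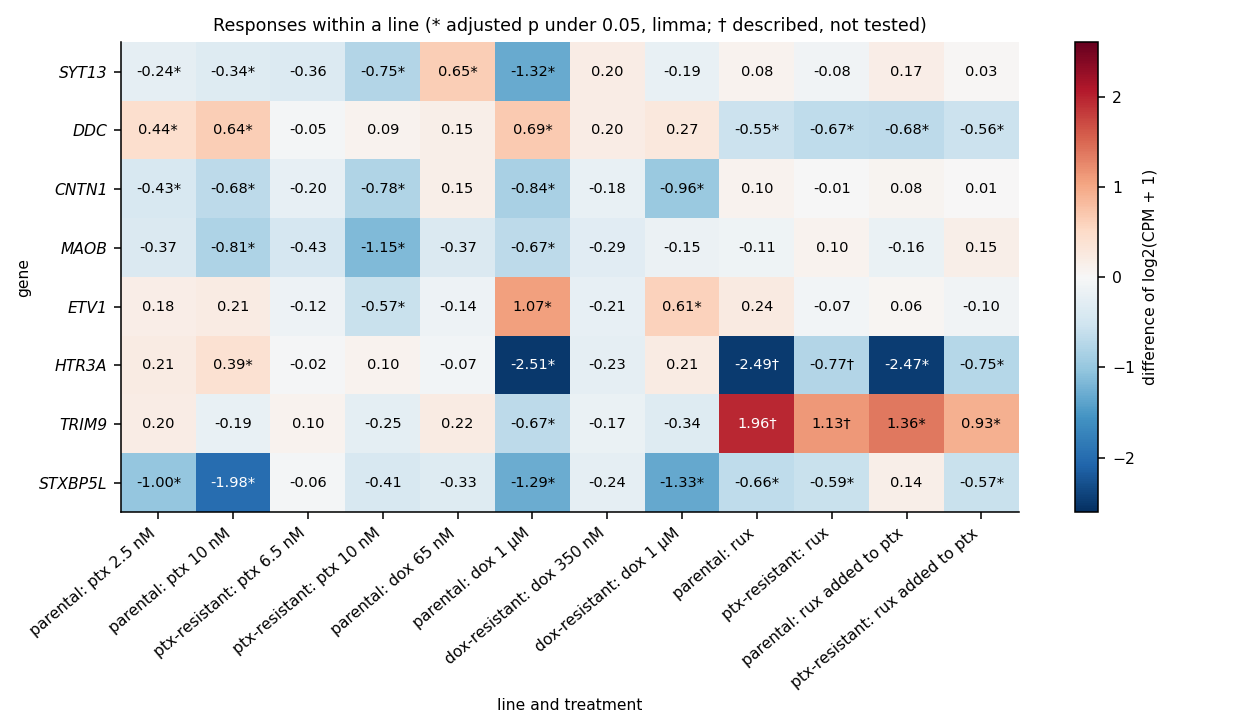
Difference of log2(CPM + 1) for each gene (rows) in each of 12 responses within a line (columns), coloured from blue (lower) to red (higher), with * for an adjusted p under 0.05 (limma) and † for values described without a test. The darkest cells are HTR3A in parental cells, lower in 1 µM doxorubicin (-2.51), in ruxolitinib (-2.49) and when ruxolitinib was added to paclitaxel (-2.47).

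With ruxolitinib HTR3A was lower and TRIM9 higher in both lines that received it, DDC and STXBP5L fell, and the other 4 genes were not called. HTR3A had 0.535 and 0.713 CPM in parental cells in ruxolitinib, against 7.41 and 8.90 CPM in DMSO, and in paclitaxel-resistant cells 0.143 and 0.138 CPM (3 and 4 reads), against 1.14 and 0.769 CPM. TRIM9 had 12.8 and 11.9 CPM in parental cells in ruxolitinib, against 2.55 and 2.32 CPM in DMSO, and 8.49 and 9.11 CPM in paclitaxel-resistant cells, against 3.63 and 3.32 CPM. Treated and control libraries did not overlap for either gene in either line. The differences were -2.49 ± 0.13 and -0.77 ± 0.13 for HTR3A and 1.96 ± 0.15 and 1.13 ± 0.15 for TRIM9, in parental and paclitaxel-resistant cells. These are given without a test, because this change may have chosen both genes. For HTR3A in paclitaxel-resistant cells the ruxolitinib libraries are at the limit that a count of 0 allows.

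Libraries with ruxolitinib and paclitaxel, labelled 15 nM ruxolitinib, were tested against paclitaxel alone. Since the source of HTR3A and TRIM9 is not recorded, these libraries may also have helped to choose them, and their 4 calls here are no independent evidence. HTR3A had 0.961 and 0.838 CPM in the parental combination against 9.93 and 9.19 CPM in 2.5 nM paclitaxel, a fall of 2.47 ± 0.13 (adjusted p = 6.93e-12). In paclitaxel-resistant cells it had 0.0721 and 0.217 CPM (2 and 4 reads) against 0.811 and 1.02 CPM in 6.5 nM paclitaxel (-0.75 ± 0.13, adjusted p = 7.77e-04). TRIM9 had 10.6 and 7.93 CPM in the parental combination against 3.09 and 2.81 CPM (1.36 ± 0.15, adjusted p = 1.15e-06), and 8.87 and 7.37 CPM in the paclitaxel-resistant one against 3.65 and 3.91 CPM (0.93 ± 0.15, adjusted p = 4.58e-04). Both genes moved beyond the spread of their libraries in both lines.

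DDC was lower in all 4 comparisons, 2 with ruxolitinib labelled 15 µM and 2 with it labelled 15 nM. It had 1.65 and 1.57 CPM in parental ruxolitinib (-0.55 ± 0.13 against DMSO, adjusted p = 0.00545) and 21.9 and 21.0 CPM in paclitaxel-resistant ruxolitinib (-0.67 ± 0.13, adjusted p = 0.0018). In the combination it had 2.58 and 1.94 CPM in parental cells (-0.68 ± 0.13 against paclitaxel, adjusted p = 8.65e-04) and 22.5 and 22.1 CPM in paclitaxel-resistant cells (-0.56 ± 0.13, adjusted p = 0.0157). In each case both libraries with ruxolitinib were below both without. The DMSO comparisons lost their call without parental DMSO replicate 1 (-0.43, adjusted p = 0.0665), parental ruxolitinib replicate 2 (adjusted p = 0.0567) or paclitaxel-resistant DMSO replicate 1 (adjusted p = 0.0569). The paclitaxel-resistant combination lost it without any 1 of its 4 libraries (adjusted p = 0.111 to 0.13).

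STXBP5L was lower with ruxolitinib in 3 of the 4. It had 3.62 and 4.04 CPM in parental ruxolitinib (-0.66 ± 0.15, adjusted p = 0.00319), 1.24 and 1.38 CPM in paclitaxel-resistant ruxolitinib (-0.59 ± 0.15, adjusted p = 0.0148) and 1.05 and 1.46 CPM in the paclitaxel-resistant combination (-0.57 ± 0.15, adjusted p = 0.0285). The parental combination, at 2.97 and 3.51 CPM, overlapped 2.5 nM paclitaxel (0.14, adjusted p = 0.478). The parental call was lost without parental DMSO replicate 1 (-0.49, adjusted p = 0.061). Both paclitaxel-resistant calls were lost by voom (adjusted p = 0.0618 and 0.0918) and when 1 library was left out. Against DMSO this held for every library but DMSO replicate 1 (adjusted p = 0.0668 to 0.176), and against paclitaxel for every library but combination replicate 2 (adjusted p = 0.0789 to 0.409).

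SYT13, CNTN1, MAOB and ETV1 were not called by limma in any of the 4 ruxolitinib comparisons, with differences from -0.16 to 0.24. SYT13 in ruxolitinib had 10.6 and 11.4 CPM in parental and 140 and 133 CPM in paclitaxel-resistant cells, and in the combination 9.57 and 9.95 CPM and 118 and 111 CPM. Its parental combination passed after the GC and length correction (0.30, adjusted p = 0.0248). CNTN1 had 1.65 and 1.81 CPM and 19.1 and 20.4 CPM in ruxolitinib, and 0.961 and 1.03 CPM and 19.5 and 15.3 CPM in the combination. For both genes the 95% intervals of all 4 differences lay between -0.30 and 0.39.

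MAOB had 1.73 and 2.09 CPM in parental and 15.6 and 12.05 CPM in paclitaxel-resistant ruxolitinib, and 1.00 and 1.33 CPM and 10.9 and 9.76 CPM in the combinations. ETV1 had 2.39 and 2.85 CPM and 18.8 and 17.1 CPM in ruxolitinib, and 3.36 and 1.98 CPM and 16.4 and 15.7 CPM in the combinations. The standard errors, 0.15 for MAOB and 0.18 for ETV1, were larger than those of SYT13 and CNTN1. Small changes of these 2 genes are thus less well limited.

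Counted by comparison, ruxolitinib alone gave 2 calls among the 6 genes tested in each line (DDC and STXBP5L, lower), where 13.2% of all genes were called in parental and 6.92% in paclitaxel-resistant cells. Added to paclitaxel it gave 3 calls among 8 in parental cells (TRIM9 higher, HTR3A and DDC lower), where 27.9% of genes were called, and 4 in paclitaxel-resistant cells (TRIM9 higher, HTR3A, DDC and STXBP5L lower), where 3.28% were. HTR3A and TRIM9 may have been chosen on ruxolitinib, so their calls are no independent evidence. The DDC and STXBP5L calls in the paclitaxel-resistant combination were lost when single libraries were left out. Nothing is read from these counts.

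**Figure D4:**
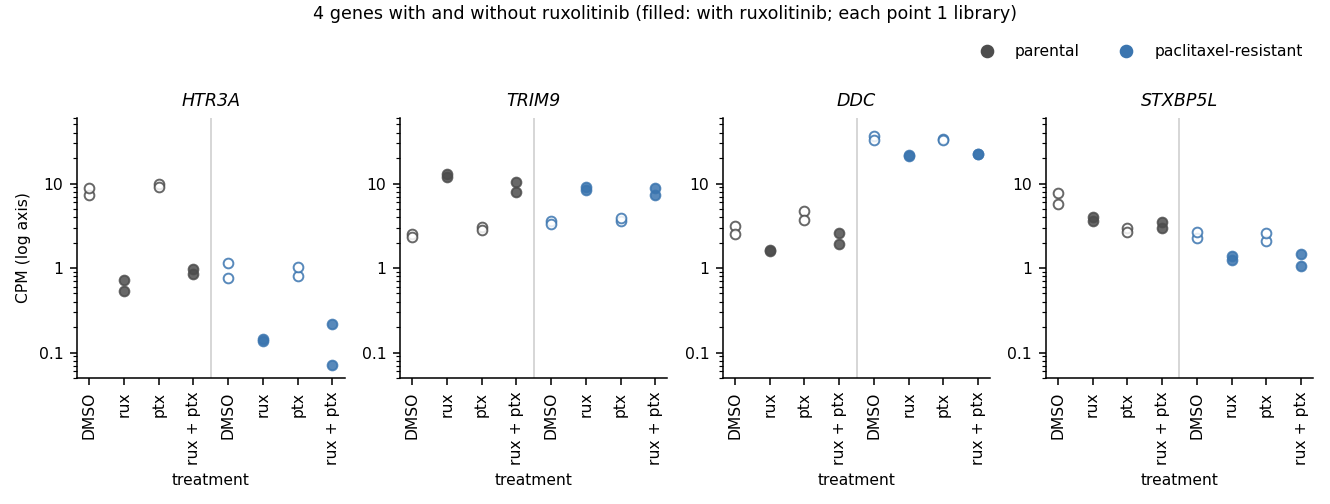
CPM on a log axis of HTR3A, TRIM9, DDC and STXBP5L in parental (grey) and paclitaxel-resistant (blue) cells, by treatment, with 1 point per library, filled where ruxolitinib was given (ptx is 2.5 nM paclitaxel in parental and 6.5 nM in resistant cells). Filled points lie below open ones for HTR3A and DDC and above them for TRIM9 in both lines, for each control and its ruxolitinib group.

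Whether a dose acted differently in a resistant line was tested as a difference of responses, and 5 of 22 such tests were called. Each such difference subtracts the difference between lines in DMSO, on which the genes were selected, so these tests are not independent of that choice. For 1 µM doxorubicin, 3 of the 8 genes were called, where 58.3% of all genes were: HTR3A (2.73 ± 0.18, adjusted p = 1.93e-11), SYT13 (1.13 ± 0.12, adjusted p = 7.08e-08) and MAOB (0.52 ± 0.21, adjusted p = 0.0344). All 3 fell in parental cells. In doxorubicin-resistant cells none of them was called, with SYT13 (-0.19) and MAOB (-0.15) slightly lower and HTR3A (0.21) slightly higher. For MAOB the doxorubicin-resistant libraries hold few reads, and the call was lost by voom (0.44, adjusted p = 0.564). CNTN1 (-0.12, 95% interval -0.52 to 0.29) and STXBP5L (-0.04, interval -0.47 to 0.39), which fell in both lines, were not called.

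For 10 nM paclitaxel, 2 of the 8 genes were called, where 10.8% of all genes were. STXBP5L fell in parental cells by 1.98 and not past the threshold in paclitaxel-resistant cells, a difference of 1.57 ± 0.21 (adjusted p = 3.46e-05). On the ratio scale mean CPM was 7.08-fold lower in parental and 1.52-fold lower in resistant cells. SYT13 fell more in resistant cells (-0.42 ± 0.12, adjusted p = 0.0323), a call lost with a pseudocount of 0.25 CPM (adjusted p = 0.0541), by voom (adjusted p = 0.0767) and without any 1 of its 8 libraries (adjusted p = 0.0629 to 0.109) other than parental DMSO replicate 1 and paclitaxel-resistant 10 nM replicate 1. ETV1 (-0.79 ± 0.26, adjusted p = 0.0505) and DDC (-0.55 ± 0.18, adjusted p = 0.0587) were just outside the threshold, and both passed after the GC and length correction (adjusted p = 0.01 and 0.0108) and with median-of-ratios scaling (adjusted p = 0.0463 and 0.0486). DDC also passed for paclitaxel with the replicate number as a block (adjusted p = 0.0291), with a pseudocount of 0.25 CPM (adjusted p = 0.0446) and by voom (adjusted p = 0.0355). For 1 µM doxorubicin the DDC difference of responses (-0.42 ± 0.18, adjusted p = 0.056) passed with the block (adjusted p = 0.0273), the smaller pseudocount (adjusted p = 0.0357), median-of-ratios scaling (adjusted p = 0.0291), voom (adjusted p = 0.0393) and the GC and length correction (adjusted p = 0.0258).

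For ruxolitinib, 0 of the 6 genes tested were called by limma, where 0.408% of all genes were, also 0 by voom, and 0 at an unadjusted 0.05. HTR3A and TRIM9, described only, differed between lines by 1.72 ± 0.18 and -0.82 ± 0.21. With ruxolitinib mean HTR3A went from 8.15 to 0.624 CPM in parental and from 0.953 to 0.141 CPM in paclitaxel-resistant cells. Adding 1 CPM understates the HTR3A fall most in the resistant line, where all these levels are low. With 3 and 4 reads of HTR3A in the resistant ruxolitinib libraries, the depth limits what can be read from its smaller difference there.

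Over the 15 group means of log2(CPM + 1), which share lines and controls, 5 pairs of the genes were most alike. Pearson's r was 0.97 for SYT13 and CNTN1, 0.94 for MAOB and ETV1, 0.89 for DDC and CNTN1, 0.87 for SYT13 and MAOB, and 0.86 for SYT13 and DDC. The lowest was -0.77, for ETV1 and STXBP5L. These are descriptions of lines that differ at many genes. The same measure gave, for each gene, the 3 tested genes closest to it, with r from 0.91 to 0.98. They were TAB3, ZNF283 and H2AFY2 for SYT13, OAS2, ATP10D and MAGEA6 for DDC, SCGB1D2, MSRA and ILDR2 for CNTN1, and ECI2, SYT12 and OLFM2 for MAOB. For ETV1 they included MED12L and LGALS8. They were RRP9, NCF4 and MSN for HTR3A, for TRIM9 PCK2, USP18 and KAZALD1, and for STXBP5L DCLK1, SLC5A8 and RPS15A. SYT12, a relative of SYT13 that came out near MAOB, had 84.2 ± 14.9 CPM in parental, 40.3 ± 0.561 in doxorubicin-resistant and 277 ± 5.28 in paclitaxel-resistant DMSO (SD, n = 2).

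Other genes of the same pathways moved in both directions in most of the lists, though not in all. They come from lists made for this work, and their differences in DMSO were tested with the same fit. Over all tested genes, 16.3% were called higher and 16.3% lower in paclitaxel-resistant cells. In doxorubicin-resistant cells the shares were 12.3% and 15.2%. Of 13 tested genes of monoamine metabolism and transport other than DDC and MAOB, 4 were called in paclitaxel-resistant cells, all higher, and 4 were higher and 3 lower in doxorubicin-resistant cells. The median difference was 0.23 and -0.03, against -0.01 over all genes in both. The makers of the precursors of DDC's products were nearly absent: TH reached at most 0.154 CPM, TPH1 0.746 CPM and TPH2 0.828 CPM in any library. SLC18A2, which loads amines into vesicles, reached 0.236 CPM.

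Of 17 tested synaptotagmins and relatives besides SYT13, 3 were higher and 4 lower in paclitaxel-resistant cells, and 2 higher and 4 lower in doxorubicin-resistant cells. SYT12 (1.72 ± 0.12, adjusted p = 4.94e-11) and SYTL5 (1.56 ± 0.13, adjusted p = 8.06e-10) were the large ones in paclitaxel-resistant cells, and in doxorubicin-resistant cells SYT17 was higher (1.07 ± 0.12, adjusted p = 3.33e-07) and SYT12 lower (-1.03 ± 0.12, adjusted p = 3.20e-07). Of 34 tested genes of the SNARE fusion machinery besides STXBP5L, 9 were higher and 5 lower in paclitaxel-resistant and 6 higher and 1 lower in doxorubicin-resistant cells. The only one past a difference of 1 was UNC13D, a vesicle priming factor, lower in paclitaxel-resistant cells (-1.43 ± 0.14, adjusted p = 3.50e-08). The close relative of STXBP5L, STXBP5, named after its values were seen, did not differ past the threshold in DMSO in either line (0.03 and -0.11).

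Of 14 tested contactins and partners besides CNTN1, 3 were higher and 3 lower in paclitaxel-resistant and 1 higher and 4 lower in doxorubicin-resistant cells. PTPRG, a receptor phosphatase that binds contactins, was lower in both (-1.14 ± 0.35, adjusted p = 0.0145, and -1.39 ± 0.35, adjusted p = 0.00392), as was the matrix protein TNC (-1.10 ± 0.12, adjusted p = 1.57e-07, and -1.005 ± 0.12, adjusted p = 6.91e-07). Of 12 tested class I TRIM ligases and netrin signalling genes besides TRIM9, 2 were higher and 3 lower in paclitaxel-resistant and 3 higher and 2 lower in doxorubicin-resistant cells. MID1, a ligase of the same class, was higher in both (1.55 ± 0.11, adjusted p = 7.88e-11, and 1.56 ± 0.11, adjusted p = 1.33e-10). The netrin receptor UNC5B was lower in paclitaxel-resistant cells (-1.32 ± 0.12, adjusted p = 6.10e-09). In doxorubicin-resistant cells the netrin receptor UNC5A was higher (1.02 ± 0.16, adjusted p = 4.09e-05) and NTNG1 lower (-1.10 ± 0.16, adjusted p = 1.68e-05).

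Of 25 tested PEA3 factors and ERK feedback genes besides ETV1, 7 were higher and 10 lower in paclitaxel-resistant and 4 higher and 7 lower in doxorubicin-resistant cells. The other PEA3 factors shared the direction of ETV1 in paclitaxel-resistant cells: ETV5 was higher by 1.68 ± 0.16 (adjusted p = 1.08e-08) and ETV4, named after its values were seen, by 0.69 ± 0.13 (adjusted p = 1.74e-04). They did not in doxorubicin-resistant cells, where ETV5 (-0.12, adjusted p = 0.63) and ETV4 (-0.01, adjusted p = 0.982) were not called. EGR1 (1.37 ± 0.09, adjusted p = 2.85e-11) and the feedback inhibitor SPRY4 (1.36 ± 0.10, adjusted p = 1.41e-10) were higher in paclitaxel-resistant cells. DUSP6, also named after its values were seen, was lower there (-0.76 ± 0.08, adjusted p = 5.50e-08). SPRED1, named in the same way, was not called there (-0.04 ± 0.16, adjusted p = 0.883). SPRY4 was also higher in doxorubicin-resistant cells (1.24 ± 0.10, adjusted p = 1.01e-09), where FOSL1 was lower (-1.17 ± 0.17, adjusted p = 1.03e-05). Of 9 tested ligand-gated channels, receptors and chaperones besides HTR3A, 3 were higher and 3 lower in paclitaxel-resistant cells, and 2 were called in doxorubicin-resistant cells, both lower. The serotonin receptor HTR2C was higher in the former (1.10 ± 0.17, adjusted p = 2.90e-05), at 1.61 ± 0.164 CPM against 0.218 ± 0.035 CPM in parental cells (SD, n = 2). Of the 50 genes of that list in the table, HTR3A included, 40 stayed under 1 CPM in every library.

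The word neural is the label under which these genes were grouped, and markers that define nerve cells were mostly absent. Of 21 neuronal markers in the table, 12 stayed under 1 CPM in every library, among them RBFOX3 (highest 0.0762 CPM), GAP43 (0.0482 CPM) and STMN2 (0.530 CPM), and of 20 neuroendocrine markers 15 did, among them CHGA (0.175 CPM) and INSM1 (0.0786 CPM), while NEUROD1 had no read. Summed over the list, neuronal markers ran from 71.5 to 136 CPM in parental, 65.4 to 83.1 CPM in doxorubicin-resistant and 96.4 to 121 CPM in paclitaxel-resistant libraries. Most of this came from MAP2, SYN3 and TUBB3, and of the 7 tested, 3 were higher and 2 lower in paclitaxel-resistant cells, and 2 were called in doxorubicin-resistant cells, both lower. SYN3 was higher (1.01 ± 0.10, adjusted p = 3.82e-08) and TUBB3 lower (-1.19 ± 0.11, adjusted p = 9.33e-09) in paclitaxel-resistant cells. Neuroendocrine markers summed to 1.89 to 9.06, 1.504 to 2.43 and 1.04 to 7.82 CPM in parental, doxorubicin-resistant and paclitaxel-resistant cells, in that order. Of the 4 tested, 1 was called in paclitaxel-resistant and 2 in doxorubicin-resistant cells, all lower, including ENO2 in the latter (-1.21 ± 0.13, adjusted p = 1.59e-07).

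Luminal epithelial markers summed to 6438 to 12314 CPM over all libraries, and of 15 tested, 6 were higher and 4 lower in paclitaxel-resistant cells, including KRT8 (-1.03 ± 0.11, adjusted p = 1.07e-07), and 1 higher and 4 lower in doxorubicin-resistant cells. Of 14 glial and Schwann cell markers 10 stayed under 1 CPM in every library, with no read of S100B or FABP7, and the sum of 113 to 292 CPM came mostly from MBP and from ERBB3, a receptor that epithelial cells also make. Of the 4 tested, 1 was called in paclitaxel-resistant cells, lower, and 3 in doxorubicin-resistant cells, all higher. Stromal, endothelial and immune markers summed to 18.3 to 49.1 CPM, with 1 of 6 tested higher and 1 lower in each resistant line. Of 12 repressors of neuronal genes, all tested, 2 were higher and 5 lower in paclitaxel-resistant and 1 higher and 3 lower in doxorubicin-resistant cells. The corepressor RCOR2 was lower in both (-1.02 ± 0.17, adjusted p = 6.83e-05, and -1.22 ± 0.17, adjusted p = 8.67e-06), and HDAC1 was higher in doxorubicin-resistant cells (1.21 ± 0.08, adjusted p = 1.08e-10). REST, the factor they work with, named after its values were seen, was at -0.32 ± 0.12 (adjusted p = 0.0438) and -0.16 ± 0.12 (adjusted p = 0.363). The part of any of these lists in the levels of the 8 genes was not tested.

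**Figure D5:**
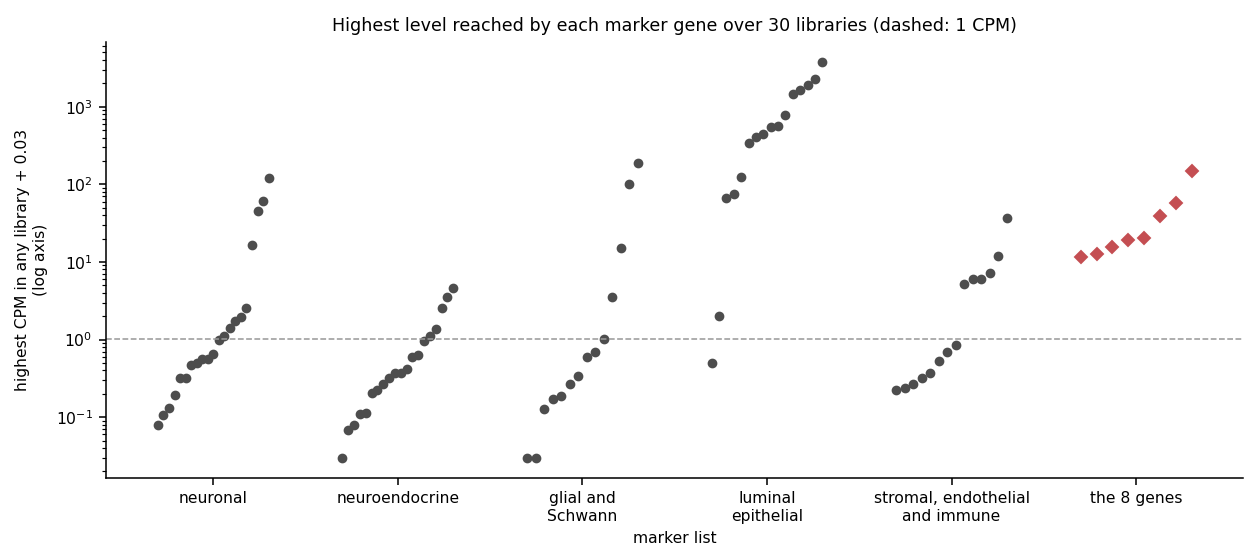
Highest CPM that each marker gene reached in any of the 30 libraries, plus 0.03, on a log axis, by marker list (grey points), beside the 8 genes (red diamonds), with a dashed line at 1 CPM. Most neuronal and neuroendocrine markers lie below the line, nearly all luminal epithelial markers lie above it, and all 8 genes lie above it.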

How the data were processed

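Per the submitters' processing notes, the authors used STAR 2.5.1b, GRCh37 (hg19) and edgeR; the counter, annotation and use of strand are not named in the sources used here. The deposited values are log2(CPM + 1) with TMM scaling by the authors. Dividing out the step of 1 read gave whole reads for 100% of values (tolerance 0.01), 18443749 to 32669995 per library, so more deeply sequenced libraries carry less counting error. The 8 genes and all gene lists were chosen with earlier results of these data known.

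Genes with at least 1 CPM in at least 2 libraries (12743 of 20114) were fitted with limma 3.58.1 (R 4.3.3, trend and robust) as 15 group means, with 15 residual degrees of freedom, a median prior of 8.08 and 1 spread shared by all groups. A gene was called at an adjusted p under 0.05 (Benjamini-Hochberg over all genes tested, two-sided). Named list genes passed this and differed by at least 1 on the log2 scale, at most the 4 largest per list and comparison. Neighbours were the 3 tested genes with the highest Pearson's r over 15 group means. A neighbour and a marker gene are not reported here. On simulated data for parental ruxolitinib against DMSO, with 200 of 12743 genes changed, the fit recovered 39 of 67 genes at 1.5-fold, 58 of 67 at 2-fold and 63 of 66 at 4-fold, with 11 false calls. The fit was also run with 0.25 CPM as pseudocount, with every gene kept, with median-of-ratios scaling, with a replicate block, with only the lines compared, by voom on the recovered reads, without each library in turn, and with a GC and length correction (95.3% of genes had both), which was added after seeing the data. Tables and figures used Python 3.11.15, pandas 2.3.3 and matplotlib 3.10.9.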

Additional observations from a re-analysis of the deposited data

Results flagged for a closer look

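The response to a drug differed between lines, by a test of the difference itself, for 5 combinations of gene and drug (limma, log2(CPM + 1), resistant minus parental response). Each contains the difference between lines in DMSO on which the genes were selected, so these tests are not independent of that choice. For 1 µM doxorubicin, where 58.3% of all tested genes were called, these were HTR3A (2.73, adjusted p = 1.93e-11), SYT13 (1.13, adjusted p = 7.08e-08) and MAOB (0.52, adjusted p = 0.0344). For 10 nM paclitaxel, where 10.8% of all tested genes were called, they were STXBP5L (1.57, adjusted p = 3.46e-05) and SYT13 (-0.42, adjusted p = 0.0323). The MAOB difference lost its call with a pseudocount of 0.25 CPM (adjusted p = 0.0914), with median-of-ratios scaling (adjusted p = 0.0539), by voom (adjusted p = 0.564), and without doxorubicin-resistant DMSO replicate 1 (0.44, adjusted p = 0.12), doxorubicin-resistant 1 µM replicate 2 (adjusted p = 0.107), parental DMSO replicate 2 (adjusted p = 0.104) or parental 1 µM replicate 1 (adjusted p = 0.0856). The ETV1 difference for 1 µM doxorubicin (-0.46, adjusted p = 0.125) passed without doxorubicin-resistant 1 µM replicate 1 (-0.79, adjusted p = 0.0104).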

How the results depend on the processing

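No called value of the 8 genes changed sign under any alternative run, while several values that were not called did, among them CNTN1 at 65 nM doxorubicin in parental cells (-0.07 to 0.36) and the ETV1 difference of responses to 1 µM doxorubicin (-0.79 to 0.12). The count of calls between lines under the same treatment (22 of 24) ran from 20 to 23 and that of responses (37 of 92) from 33 to 40. The count of differences of responses (5 of 22) was 8 with the GC and length correction, 7 with median-of-ratios scaling, 6 with only the lines compared, 5 with the 0.25 CPM pseudocount, no filter or voom, and 4 to 8 when 1 library was left out. It was 8 without either parental 2.5 nM paclitaxel library or doxorubicin-resistant 1 µM replicate 1. The cause was not tested. Of 138 single results, calls were lost or gained in 5 and 3 with the smaller pseudocount, 1 and 0 with no filter, 2 and 3 with median-of-ratios scaling, 3 and 3 with only the lines compared, 7 and 2 by voom, and 2 and 8 with the GC and length correction. Leaving out 1 library changed 57 of 640 results, 47 lost and 10 gained.

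Replicate numbers did not pair the samples: over 105 pairs of groups the correlation of replicate differences ran from -0.69 to 0.65, with 30 above 0.1 and 30 below -0.1. Parental DMSO held both extremes, 0.65 with the parental combination and -0.69 with parental 1 µM doxorubicin. Library differences were thus partly shared between groups, though not by replicate number. With the replicate block the counts were 22, 36 and 7. It ended the call of SYT13 at 2.5 nM paclitaxel (adjusted p = 0.052) and gave calls to the 2 DDC differences of responses. Depth limits MAOB and ETV1 in doxorubicin-resistant cells and HTR3A with ruxolitinib in paclitaxel-resistant cells, where libraries held 2 to 51 reads of these genes.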
